A study of Mus musculus with 2 samples.

Results

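The genes described here are the 39 Hox genes of the mouse, spread over the Hoxa, Hoxb, Hoxc and Hoxd clusters, together with Halr1, a long noncoding RNA gene beside the Hoxa cluster. They were taken by symbol, 40 of the 24354 genes in the deposited values, with no filter on their values. Earlier results of these data were known when they were chosen. Poly(A) RNA was sequenced from ESCs after differentiation, with 1 library of a control line (Diff–CONT) and 1 of a line in which Ino80 can be deleted (Diff–iKO). Both ESC lines carried the floxed Ino80 2f/2f allele, and the iKO line also carried ROSA26-CreER, while the sample labels call the control genotype WT. The lines were derived from blastocysts, and the number of clones is not given in the sources used here. ESCs were primed in serum medium and grown as embryoid bodies for 4 days in suspension. After attachment the cells of both lines were kept for 7 days, from day 5 to day 12, in a medium with serum, BMP4 and 0.5 µM 4-hydroxytamoxifen (4-OHTM), the ligand that activates CreER.

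Hox genes encode homeodomain transcription factors that give cells their position along the head to tail axis. In each cluster the genes stand in the order in which they are used: paralogue group 1 lies at the 3′ end and acts early and anteriorly, and group 13 lies at the 5′ end and acts late and posteriorly, a property called collinearity. In pluripotent cells the clusters are covered by Polycomb proteins, and signals such as retinoic acid, Wnt and Fgf open them progressively during differentiation. Hox proteins bind DNA together with cofactors of the Pbx, Meis and Pknox families.

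Values are FPKM, in which sequenced fragments are counted relative to transcript length and library size, so levels can be compared between genes. No difference between the libraries has a replicate check, and no p-value is given. The intervals given with log2 ratios (Diff–iKO over Diff–CONT) are exact Clopper-Pearson 95% intervals on the fragments behind a gene, which cover counting error only. The depth recovered from the values was about 28100000 fragments for Diff–CONT and 21900000 for Diff–iKO. Ino80, the targeted gene, had an FPKM of 8.90 in the control and 10.3 in the knockout, as labelled. Its whole-gene level thus ran against the knockout label, and FPKM per gene does not resolve the deleted part. Below, Diff–CONT and Diff–iKO therefore stand for the libraries so labelled. RNA of the whole culture was measured, so fewer cells of a type and less RNA per cell cannot be told apart.

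Hoxb9 was the 1 Hox gene with at least a 2-fold higher level in Diff–iKO at an FPKM of 2 or more. Its homeobox, the 180 bases that encode the homeodomain, is shown beside that of its paralogue Hoxc9, the member with which it shares its longest run of bases. Homeoboxes are a part in which sequencing reads of paralogues could be confused. Both are in the last exon and are given on the coding strand, with coordinates on GRCm38 (mm10) from GENCODE vM21. The Hoxb9 homeobox lies at chr11:96274659-96274838 on the plus strand, in exon 2 of 2. That of Hoxc9 lies at chr15:102983930-102984109 on the plus strand. Capitals mark bases that differ from Hoxb9.
Hoxb9: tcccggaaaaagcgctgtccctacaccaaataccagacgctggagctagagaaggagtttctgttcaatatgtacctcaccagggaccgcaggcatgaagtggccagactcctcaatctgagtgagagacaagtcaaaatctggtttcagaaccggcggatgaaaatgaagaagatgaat
Hoxc9: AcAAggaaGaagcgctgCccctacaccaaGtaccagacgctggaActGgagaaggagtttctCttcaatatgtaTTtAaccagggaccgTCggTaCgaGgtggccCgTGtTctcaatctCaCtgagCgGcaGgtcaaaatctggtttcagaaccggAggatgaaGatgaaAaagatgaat
Hoxc9 was identical to Hoxb9 at 151 of these bases (83.9%). For the genes of other paralogue groups the share of bases identical to Hoxb9 ran from 53.3% for Hoxa13 to 75% for Hoxa10. Over whole transcripts, none of the 40 members shared a stretch of 75 bases with another member. The longest run that Hoxb9 shared with another member was 50 bases, with Hoxc9. That run does not lie within the homeobox shown, where capitals part the sequences into shorter stretches.

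Hox transcripts were scarce in both libraries. Of the 39 genes, 38 were above 0 in Diff–CONT and 37 in Diff–iKO, but only 10 reached an FPKM of 2 and 31 an FPKM of 0.5 in at least 1 library. The highest Hox level was 11.4 (Hoxb2) in Diff–CONT and 9.83 (Hoxb9) in Diff–iKO, at percentiles 71.9 and 70.3 of all genes. The median FPKM over the 39 genes was 1.08 in Diff–CONT and 0.370 in Diff–iKO. In the plot of FPKM by cluster, the tallest bars of Diff–CONT belong to paralogue groups 2 to 4 of Hoxa and Hoxb.

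**Figure D1:**
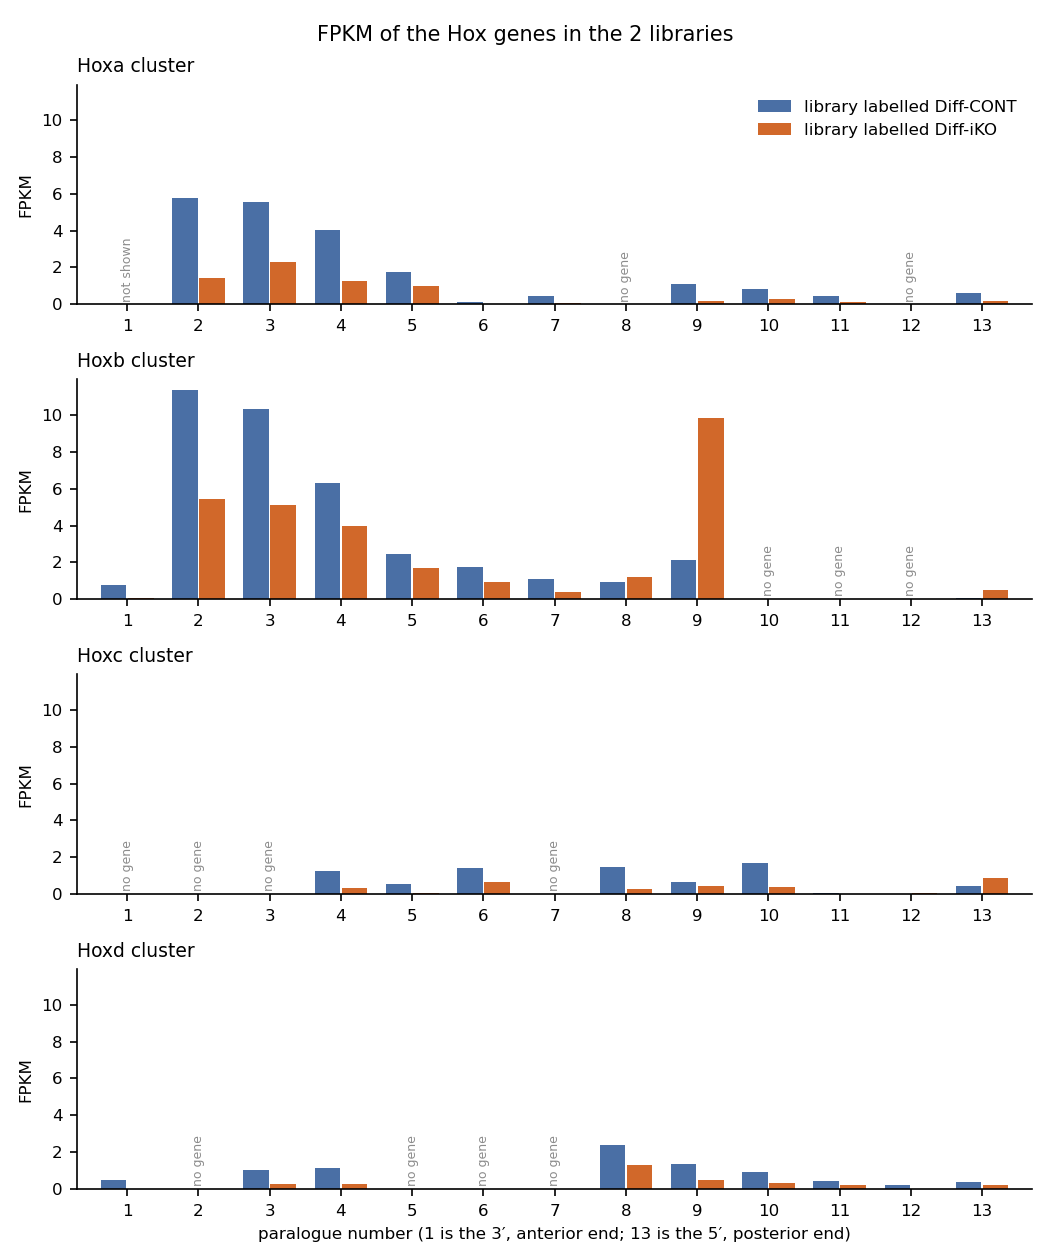
FPKM of Hox genes (vertical axis) by paralogue number (horizontal axis, 3′ end on the left) for the libraries labelled Diff–CONT (blue) and Diff–iKO (orange), with 1 panel per cluster and 1 library per condition. Hoxb2, at 11.4, is the tallest bar of Diff–CONT, and Hoxb9, at 9.83, is the tallest of Diff–iKO.

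Most Hox genes had less RNA in the library labelled Diff–iKO. In all, 33 of the 39 genes had a lower FPKM there and 6 had a higher one. Of the 31 genes with an FPKM of at least 0.5 in either library, 26 were lower and 5 higher, whereas 50.8% of all 14660 genes at that level were lower. With the cut-off of FC ≥ 2 and FPKM ≥ 2 in at least 1 library, 5 of the 10 Hox genes that reached the FPKM minimum were lower, and 8.39% of all 12376 genes were. These were Hoxa2, Hoxa3, Hoxa4, Hoxb2 and Hoxb3. In the other direction 1 of the 10, Hoxb9, was past the cut-off, against 6.73% of all genes, and so was Halr1. With FPKM ≥ 0.5 in place of 2, 20 of 31 Hox genes were lower (10.8% of all genes) and 2, Hoxb9 and Hoxb13, were higher (9.03% of all genes). The counting interval lay below 0 for 27 of the 36 Hox genes with fragments in both libraries and above 0 for 3, Hoxb9, Hoxb13 and Hoxc13. Over all genes these shares were 33.8% and 32.9%. Over the 15 Hox genes whose mean FPKM reached 1, the median log2 ratio of FPKM + 0.1 was -0.84, beside -0.01 over 13145 genes at that level. Among the Hox genes with an FPKM of at least 2 in either library, those nearest to the fold limit were Hoxb3 just inside it, with a log2 ratio of -1.01, and Hoxd8 just outside it, with -0.88.

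The clusters differed in how much of their RNA was present. The summed FPKM of the Hoxb cluster was the largest in both libraries, 37.2 in Diff–CONT and 29.2 in Diff–iKO, and the Hoxa cluster followed with 22.9 and 9.72. The 9 Hoxc genes summed to 7.54 and 3.16, and the 9 Hoxd genes to 8.44 and 3.13. The sums were thus lower in the library labelled Diff–iKO for each cluster, with log2 ratios of -1.24 for Hoxa, -0.35 for Hoxb, -1.26 for Hoxc and -1.43 for Hoxd. The Hoxb value depends on single genes. Without Hoxb2, its highest gene, the log2 ratio was -0.12, and without Hoxb9, left out after its values were seen, the sum went from 35.1 to 19.4, a log2 ratio of -0.85. Over all 39 genes the sum was 76.1 in Diff–CONT and 45.2 in Diff–iKO, and without Hoxb9 it was 74.0 and 35.4.

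In the Hoxa cluster, on the minus strand of chromosome 6, the genes past the cut-off lay together at the anterior side. Hoxa2 (chr6:52162417-52164831), which patterns the hindbrain and the jaw and ear skeleton, stood at 5.74 in Diff–CONT and 1.43 in Diff–iKO (log2 ratio -2.01, interval -2.47 to -1.57). It was 4.02-fold lower, the largest fold among Hox genes past the cut-off in that direction. Hoxa3, needed for the thymus and parathyroid, stood at 5.57 and 2.31 (log2 ratio -1.27). Hoxa4 stood at 4.05 and 1.26 (log2 ratio -1.68, interval -2.22 to -1.18). Hoxa2, Hoxa3 and Hoxa4 lie side by side, and the fold between libraries was 4.02, 2.41 and 3.21 for them in that order. Hoxa5, which acts in the neck, shoulder and lung, was nearer to equal, at 1.73 and 1.00 (log2 ratio -0.79).

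The posterior Hoxa genes had low levels in Diff–CONT and lower ones in Diff–iKO. Hoxa9, active in blood progenitors, had an FPKM of 1.08 in Diff–CONT and 0.155 in Diff–iKO, which is 6.98-fold lower. Hoxa10, a gene of the posterior trunk and uterus, stood at 0.845 and 0.316. Hoxa13, a gene of the digits and the urogenital tract, stood at 0.621 and 0.158. Their intervals lay below 0, though on only 99 and 11 fragments for Hoxa9, 32 and 9 for Hoxa10 and 21 and 4 for Hoxa13. Hoxa6, Hoxa7 and Hoxa11 stayed below 0.5 in both libraries, from 0.130 to 0.475 in Diff–CONT and from 0 to 0.148 in Diff–iKO. Hoxa6 had about 3 fragments in Diff–CONT and 0 in Diff–iKO, so no fold is given for it.

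The Hoxb cluster, on the plus strand of chromosome 11, divided between its anterior and posterior genes. Hoxb1, which marks a hindbrain segment, had an FPKM of 0.757 in Diff–CONT and 0.0943 in Diff–iKO, with 43 and 4 fragments, a log2 ratio of -3.01 (interval -4.95 to -1.55). Hoxb2 was the most abundant Hox gene of Diff–CONT, at 11.4, and stood at 5.43 in Diff–iKO, which is 2.09-fold lower. Hoxb3 stood at 10.3 and 5.13, which is 2.01-fold lower (interval of the log2 ratio -1.25 to -0.77). Both genes thus passed the fold limit narrowly, and Hoxb3 no longer passed it with a pseudocount of 0.1 or with upper-quartile scaling, which leave 4 lower Hox genes. Hoxb4, known for its part in blood stem cell expansion, stood at 6.33 and 3.97, and Hoxb5 at 2.45 and 1.72. Neither reached the fold limit, and both intervals lay below 0. Hoxb6 was also lower, at 1.76 and 0.941, as was Hoxb7, at 1.08 and 0.370, on 36 and 9 fragments.

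From Hoxb8 toward the 5′ end the direction turned. Hoxb8, a gene of the thoracic trunk and of blood progenitors, had an FPKM of 0.948 in Diff–CONT and 1.23 in Diff–iKO, and the interval of its log2 ratio of 0.38 included 0. Hoxb9 (chr11:96271330-96276595), a gene of the thoracic skeleton, stood at 2.15 in Diff–CONT and 9.83 in Diff–iKO, on 153 and 525 fragments. It was 4.58-fold higher (log2 ratio 2.19, interval 1.93 to 2.46). Hoxb13, the most posterior gene of the cluster and known from the prostate, stood at 0.0591 and 0.514, on 4 and 23 fragments, a log2 ratio of 3.12 (interval 1.57 to 5.11). The 3 genes with the largest upward log2 ratios at the 5′ side of Hoxb were therefore Hoxb8, Hoxb9 and Hoxb13 in rising order, with Hoxb8 not separated from equal levels by its counting interval.

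The Hoxc cluster, on the plus strand of chromosome 15, starts at paralogue group 4, and none of its genes reached an FPKM of 2. Hoxc8, which acts in brachial motor neurons and the thoracic skeleton, stood at 1.495 in Diff–CONT and 0.266 in Diff–iKO, which is 5.63-fold lower. Hoxc10, a gene of lumbar segments, stood at 1.70 and 0.413, which is 4.11-fold lower. Hoxc4 stood at 1.24 and 0.347, Hoxc5 at 0.537 and 0.0877, and Hoxc6 at 1.42 and 0.665. The intervals of these 5 genes lay below 0. Hoxc9 stood at 0.652 and 0.436, and its interval included 0. At the 5′ end Hoxc13, a gene of hair and nails, stood at 0.445 and 0.873, which is 1.96-fold higher (30 and 44 fragments, interval of the log2 ratio 0.27 to 1.69). Hoxc11 and Hoxc12 had at most about 3 fragments in a library, with Hoxc11 listed at 0 in Diff–iKO and Hoxc12 at 0 in Diff–CONT.

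The Hoxd cluster, on the plus strand of chromosome 2, was lower in Diff–iKO at each of its 9 genes. Hoxd8 was its highest gene, at 2.39 in Diff–CONT and 1.30 in Diff–iKO, with an interval that included 0. That interval rests on 26 and 11 fragments, reckoned with its shortest transcript, of 557 bases. A longer transcript as length would give more fragments and a narrower interval. Hoxd1 stood at 0.517 and 0.0266, which is 26 fragments and 1 fragment and a log2 ratio of -4.28 with a wide interval (-9.64 to -1.67). Hoxd3 stood at 1.02 and 0.296, Hoxd4 at 1.14 and 0.263, Hoxd9 at 1.37 and 0.466, and Hoxd10, active in the lumbar cord, at 0.941 and 0.321. For these 4 genes the level in Diff–CONT was 2.93 to 4.32 times that in Diff–iKO, and the intervals lay below 0. Hoxd11, Hoxd12 and Hoxd13, genes of the distal limb, stayed below 0.5 in both libraries, from 0.227 to 0.443 in Diff–CONT and from 0.0190 to 0.233 in Diff–iKO. Of these the intervals of Hoxd11 and Hoxd13 included 0, for Hoxd11 also with a shortest transcript, of 1111 bases, below its longer ones.

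**Figure D2:**
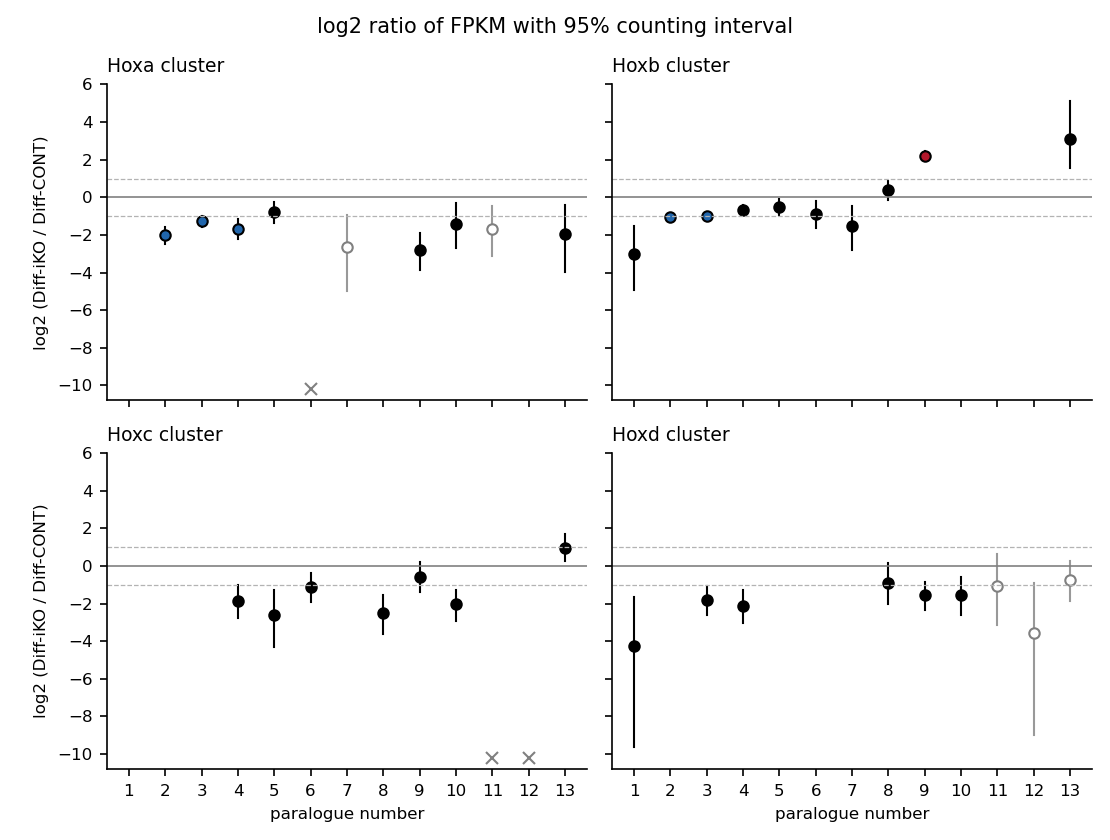
log2 ratio of FPKM, library labelled Diff–iKO over library labelled Diff–CONT (vertical axis), by paralogue number (horizontal axis), with 1 panel per cluster and the 95% counting interval as a bar. Red and blue points are past the cut-off (higher, lower), open grey points have FPKM under 0.5 in both libraries, crosses mark genes at 0 in a library with no ratio, and dashed lines mark a 2-fold difference. Points lie below 0 except Hoxb8, Hoxb9, Hoxb13 and Hoxc13.

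Across paralogue groups, 11 of 13 sums were lower in Diff–iKO. The exceptions were group 9, whose sum was 5.26 in Diff–CONT and 10.9 in Diff–iKO, and group 13, at 1.52 and 1.78. The interval of the log2 ratio of group 13 included 0 (-0.23 to 0.69). Among the lower sums, those of groups 1 and 12 also had intervals that included 0. Within group 9 the members went apart. Hoxb9 was 4.58-fold higher, while Hoxa9 was 6.98-fold, Hoxd9 2.95-fold lower, and Hoxc9 (0.652 and 0.436) was nearest to equal. Within group 13 Hoxb13 and Hoxc13 had higher levels and Hoxa13 and Hoxd13 lower ones, all under an FPKM of 1. Group 2, formed by Hoxa2 and Hoxb2, went from 17.1 to 6.86, and group 10 from 3.48 to 1.05.

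The makeup of the Hox RNA therefore differed between the libraries. Groups 1 to 4 held 66.0% of the summed Hox FPKM in Diff–CONT and 51.8% in Diff–iKO, and groups 5 to 8 held 18.9% and 16.9%. Groups 9 to 13 held 15.0% in Diff–CONT and 31.3% in Diff–iKO. This larger posterior share turns on 1 gene. The groups 9 to 13 other than Hoxb9 summed to 9.30 in Diff–CONT and 4.33 in Diff–iKO, a log2 ratio of -1.10, the same to 2 decimals as that of groups 1 to 4. As a description across 31 genes, Spearman's rho between FPKM and paralogue number was -0.46 in Diff–CONT and -0.19 in Diff–iKO. Between the log2 ratio and paralogue number rho was 0.28, and 0.25 without Hoxb9. These genes share 2 libraries and neighbouring genes share a cluster, so they are not independent points.

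**Figure D3:**
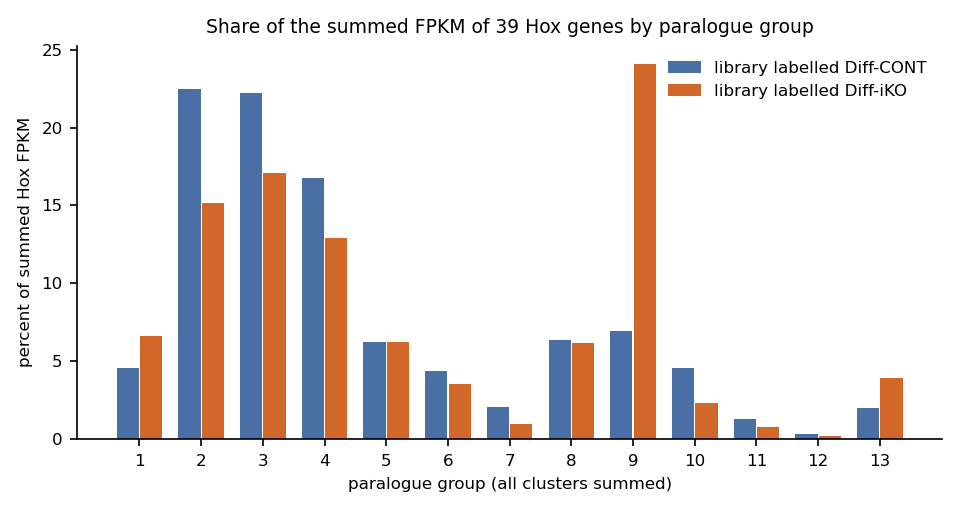
Percent of the summed FPKM of the 39 Hox genes (vertical axis) held by each paralogue group (horizontal axis, all clusters together), for the libraries labelled Diff–CONT (blue) and Diff–iKO (orange). Group 9 stands at 6.91% and 24.1%, and group 2 at 22.5% and 15.2%.

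Halr1 had the largest fold among the members past the cut-off. This gene, also known as Haunt, lies on the 3′ side of the Hoxa cluster at chr6:52102949-52113684 on the plus strand, facing the cluster. Its FPKM was 2.34 in Diff–CONT and 42.0 in Diff–iKO, which is 17.9-fold higher. About 23 and 302 fragments stood behind these values, and the interval around the log2 ratio of 4.16 ran from 3.55 to 4.84. Halr1 thus exceeded the level of every Hox gene in Diff–iKO, whereas 8 Hox genes exceeded it in Diff–CONT.

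The upstream sequences of Halr1 and Hoxa2 are shown because these genes lie at the same end of the Hoxa cluster and differed in opposite directions. They are the 250 bases before the annotated start in RefSeq (GRCm38.p6), which had an entry for 23 of the 40 members. That of Halr1 lies at chr6:52102699-52102948 on the plus strand and that of Hoxa2 at chr6:52164832-52165081 on the minus strand. Capitals mark the CCAAT motif on either strand.
Halr1: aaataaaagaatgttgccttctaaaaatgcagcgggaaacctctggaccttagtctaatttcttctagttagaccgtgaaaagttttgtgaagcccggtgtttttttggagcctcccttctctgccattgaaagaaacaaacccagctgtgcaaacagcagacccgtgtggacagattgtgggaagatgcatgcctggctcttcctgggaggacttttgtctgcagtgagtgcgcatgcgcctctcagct
Hoxa2: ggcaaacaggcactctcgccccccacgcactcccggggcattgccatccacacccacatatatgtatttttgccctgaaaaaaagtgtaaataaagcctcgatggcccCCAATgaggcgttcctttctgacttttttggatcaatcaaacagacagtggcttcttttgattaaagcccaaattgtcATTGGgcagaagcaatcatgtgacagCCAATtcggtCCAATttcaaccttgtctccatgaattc
The 3 motifs searched, on both strands, were the TATA box with the letters TATAAA, the CCAAT box with its own 5 letters, and AGGTCA, a core site of nuclear receptors such as those for retinoic acid. None of them was found in the 300-base window of Halr1 (the 250 bases and the next 50), and CCAAT was found in that of Hoxa2. CCAAT stood in 15 of the 24 windows of Hox genes and in 37.4% of all 32851 windows, AGGTCA in 7 of 24 and in 16.3%, and TATAAA in 4 of 24 and in 13.6%. The Hox windows held a median of 14.5 CpG dinucleotides (range 4 to 45), against 7 over all windows, 8 for Halr1 and 9 for Hoxa2.

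Genes around the clusters were followed in the reference annotation, within 500 kb on either side and with an FPKM of at least 0.5 in either library. From Hoxb9 to past the 5′ end of Hoxb, a run of neighbours also had higher levels in Diff–iKO. Gm53, a long noncoding RNA gene between Hoxb9 and Hoxb13, had an FPKM of 1.78 in Diff–CONT and 7.71 in Diff–iKO, which is 4.33-fold higher. Ttll6, a tubulin polyglutamylase gene next to Hoxb13, stood at 0.474 and 3.77, which is 7.94-fold higher. Calcoco2, an autophagy receptor gene that follows it, stood at 1.88 and 18.6, which is 9.88-fold higher. The intervals of these 3 genes lay above 0. The run ended past Calcoco2, with Atp5g1 at 66.5 and 121.7 (1.83-fold) and Ube2z at 45.0 and 47.8 (1.06-fold). Measured between 3′ ends, Hoxb9 lies 91.7 kb and Calcoco2 269.3 kb from Hoxb1. Ttll6 and Calcoco2 overlap at their ends on opposite strands. On the 3′ side of Hoxb, Skap1 lay below that level, at 0.170 and 0.0241. Of the 18 other genes in the Hoxb window 3 were past the cut-off upward, the run just named, and 1, B4galnt2, downward (4.57 and 0.538), beside 6.73% and 8.39% of all genes with an FPKM of at least 2. Some of the 18 lay below an FPKM of 2 and could not pass. The neighbours were named after their values were seen, and with so few genes per window the counts are a description.

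The surroundings of the other clusters held no such upward run. In the Hoxa window 1 of 6 other genes was past the cut-off upward and 2 downward. Hotairm1, a noncoding gene of the cluster, stood at 3.04 and 7.34, but on about 6 and 10 fragments of its short transcript, with an interval that included 0. Hoxaas2, which overlaps Hoxa3 on the other strand, was lower, at 3.38 and 0.742. Evx1, a homeobox gene beyond Hoxa13, stood at 2.38 and 0.232, which is 10.2-fold lower, and Skap2 on the other side at 15.1 and 21.1. On either side of Hoxc, Smug1 stood at 5.84 and 3.96 and Calcoco1 at 39.4 and 32.6. Next to Hoxd, Evx2 lay below that level, at 0.188 and 0.0359, with Mtx2 at 30.5 and 25.7 and Lnp at 5.98 and 5.12. In the Hoxd window 0 of 2 other genes at that level passed the cut-off, and in the Hoxc window 1 of 20 did in each direction. Of 16 flanking genes listed by name 2 were past the cut-off upward, Ttll6 and Calcoco2, and 1 downward, Evx1, with a median log2 ratio of -0.22. For these counts too the shares are 6.73% upward and 8.39% downward of all genes with an FPKM of at least 2. Of the 16 listed genes 13 reached that FPKM, and some genes in the Hoxa and Hoxc windows did not. Hnrnpa1 near Hoxc had the highest level of the 16 listed genes, at 256.6 and 163.8.

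**Figure D4:**
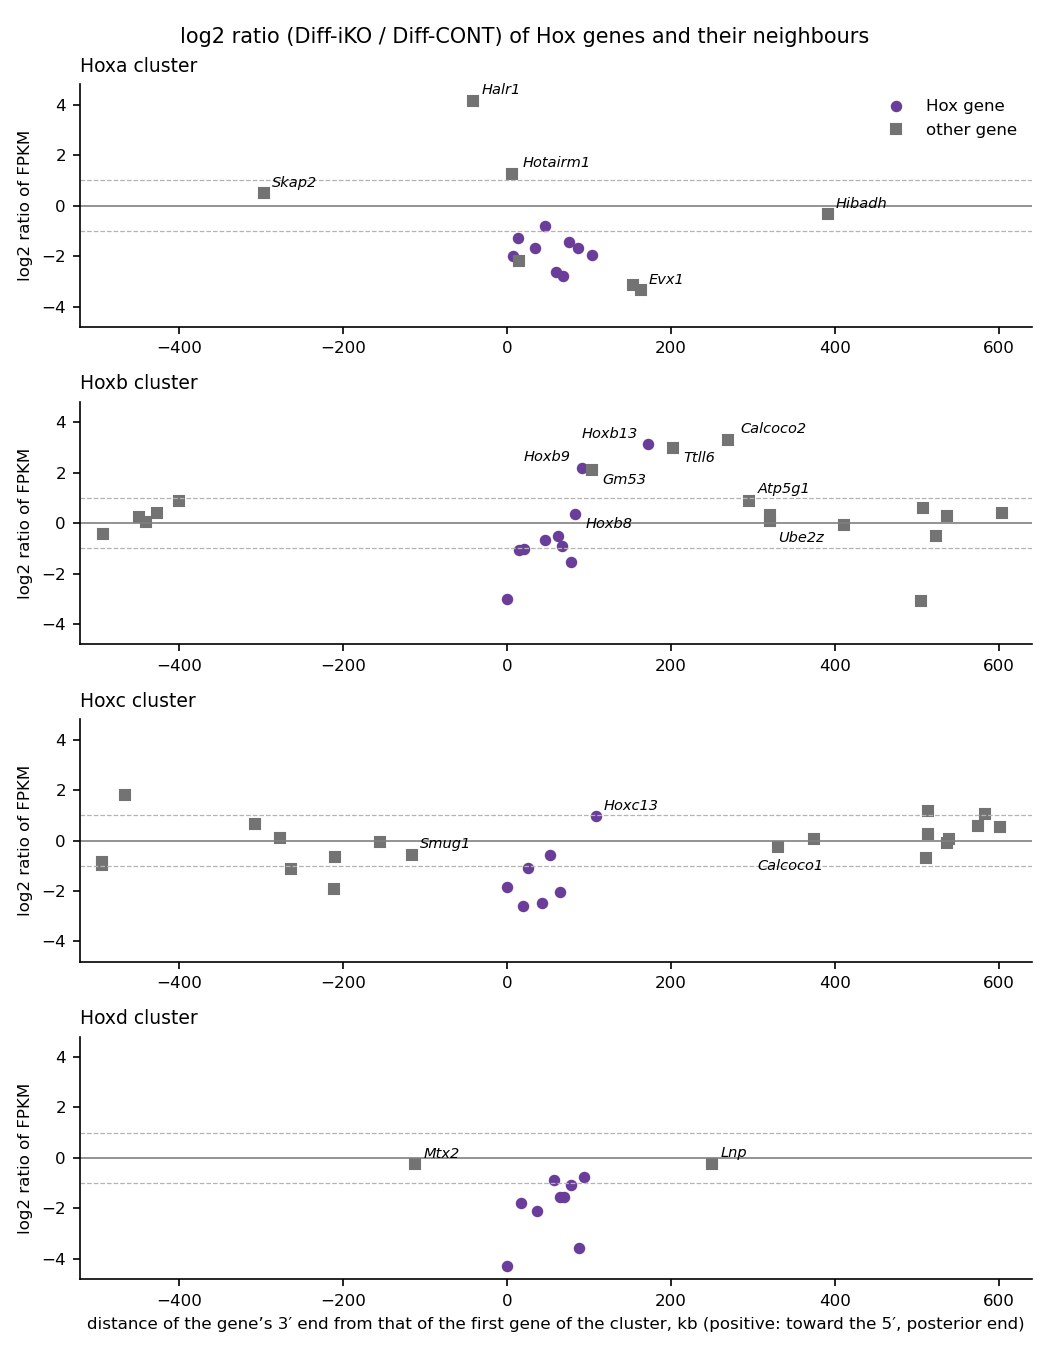
log2 ratio of FPKM, library labelled Diff–iKO over library labelled Diff–CONT (vertical axis), against the distance in kb of each gene's 3′ end from that of the first Hox gene of the cluster (horizontal axis, positive toward the 5′ end). Circles are Hox genes, squares are other genes with FPKM of at least 0.5, and dashed lines mark a 2-fold difference. In the Hoxb panel Hoxb9, Gm53, Hoxb13, Ttll6 and Calcoco2 lie side by side above 2 on the log2 scale.

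Of the 19 noncoding genes listed for the clusters 16 were in the deposited values, and 3 reached an FPKM of 2. Halr1 and Hotairm1 were past the cut-off upward (6.73% of all genes) and Hoxaas2 downward (8.39%). Hoxb5os, antisense to Hoxb5 and Hoxb6, had an FPKM of 1.01 in Diff–CONT and was listed at 0 in Diff–iKO. The 7 listed at 0 in both libraries were Hoxd3os1 and 6 miRNA genes, whose short products a poly(A) library does not capture. The kit keeps the strand of the RNA, but the strand setting of the counting is not stated. Reads of Hoxa3 and Hoxaas2 and of Hoxb5, Hoxb6 and Hoxb5os therefore cannot be assigned with certainty. The gene models of Hoxa3, Hoxb3 and Hoxd3 also span neighbouring Hox genes on the same strand.

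Of 9 listed Hox cofactors of the Pbx, Meis and Pknox families 5 were past the cut-off downward, against 8.39% of all genes. All 9 had a lower FPKM in Diff–iKO, though the intervals of Pknox1 (6.15 and 6.03) and Pbx4 (3.70 and 3.18) included 0. Their levels summed to 182.9 in Diff–CONT and 97.6 in Diff–iKO. Meis2 stood at 27.7 in Diff–CONT and 8.90 in Diff–iKO, and Pknox2 at 12.0 and 3.91. Pbx3 stood at 19.1 and 7.21, and Meis1 at 20.2 and 10.1. Pbx2 had the highest level, at 44.8 and 31.7, and did not reach the fold limit.

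Of 19 listed regulators of axial patterning, genes known to act upstream of the clusters, 15 were lower and 10 were past the cut-off downward (8.39% of all genes), with 0 upward (6.73%). The shares are of genes with an FPKM of at least 2, which 15 of the 19 reached. The median log2 ratio of the list was -1.42. Cdx2, a caudal homeobox gene that activates central Hox genes, stood at 4.00 in Diff–CONT and 0.705 in Diff–iKO. Its relative Cdx1 went the other way, at 0.405 and 1.68, under the FPKM minimum. Fgf8 stood at 18.3 and 0.807, T, the brachyury gene of the primitive streak, at 7.83 and 1.20, Wnt3 at 7.04 and 2.13, and Wnt5a at 18.4 and 8.67. In the retinoic acid pathway, Cyp26a1, which degrades it, stood at 26.6 and 2.65, and the receptor gene Rarb at 8.23 and 1.84. The receptor gene Rarg went the other way, at 24.0 and 29.7. Rara (19.7 and 12.8) and Aldh1a2 (2.18 and 1.42) were lower without reaching the fold limit. Lin28a, which had the highest level of the list, stood at 103.5 and 28.6, and Lin28b at 14.5 and 5.71. The ParaHox genes Gsx1, Gsx2 and Pdx1, relatives of the Hox genes outside the clusters, stayed below 0.5 in both libraries, Gsx1 being the highest at 0.420 and 0.169.

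Among 22 chromatin regulators of the clusters 2 were past the cut-off upward and 1 downward, counts near the 6.73% and 8.39% of all genes, with a median log2 ratio of -0.27. Cbx7 stood at 26.4 and 61.1 and Phc1 at 38.3 and 87.3, while Cbx2 stood at 16.1 and 5.54. These 3 genes encode subunits of Polycomb repressive complex 1. Of Polycomb repressive complex 2, Eed (1.92-fold), Suz12 (1.85-fold) and Jarid2 (1.93-fold) were higher without reaching the fold limit, and Ezh2 stood at 39.7 and 33.2.

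**Figure D5:**
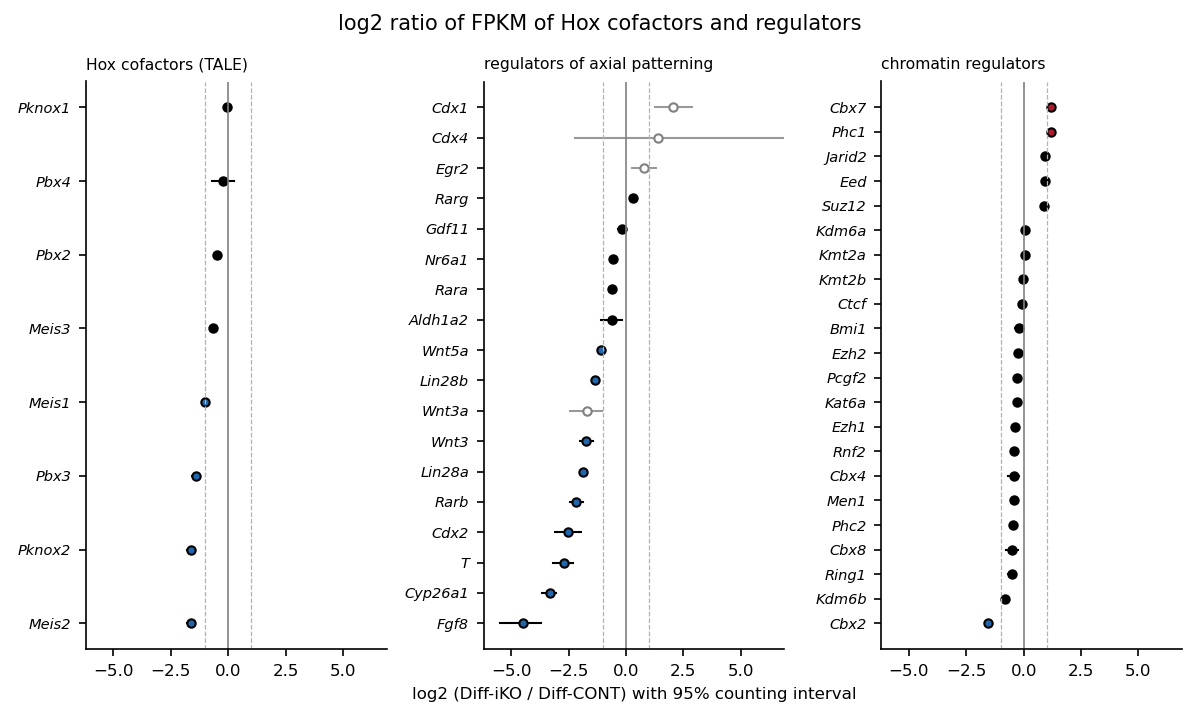
log2 ratio of FPKM, library labelled Diff–iKO over library labelled Diff–CONT (horizontal axis), for Hox cofactors, regulators of axial patterning and chromatin regulators (vertical axis), with the 95% counting interval. Red and blue points are past the cut-off (higher, lower), open grey points have FPKM under 2 in both libraries, dashed lines mark a 2-fold difference, and the interval of Cdx4 runs past the axis. The cofactors drawn lie below 0, from Pknox1 at -0.03 to Meis2 at -1.64.

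Markers of cell types differed between the libraries together with the Hox genes. Their counts past the cut-off stand beside 6.73% upward and 8.39% downward of all genes with an FPKM of at least 2. That minimum was reached by 4 of the 7 primitive streak and mesoderm genes, 3 of the 4 trophoblast genes and all genes of the other marker lists. The 4 pluripotency genes summed to 126.2 in Diff–CONT and 410.9 in Diff–iKO, and 3 of them were past the cut-off upward, Pou5f1 (60.8 and 247.0), Nanog (19.5 and 81.2) and Zfp42 (3.20 and 14.4). The 7 primitive streak and mesoderm genes summed to 92.6 and 36.9, with 4 past the cut-off downward, T, Eomes (5.25 and 1.48), Hand1 (70.8 and 31.3) and Foxf1 (5.42 and 1.37). The 5 mesenchyme genes summed to 66.1 and 27.3, with Prrx1 (8.66 and 4.30), Twist2 (6.98 and 1.66) and Pdgfra (19.1 and 4.65) lower and Thy1, the highest, at 20.1 and 10.4 among those not past the cut-off. The 4 visceral endoderm genes summed to 131.7 in Diff–CONT and were all past the cut-off downward, with Ttr at 66.7 and 2.28, Afp at 45.9 and 0.422, Foxa2 at 13.8 and 4.19 and Sox17 at 5.36 and 0.317. The 4 trophoblast genes summed to 17.5 and 40.4, with 2 past the cut-off upward, Tfap2c (6.68 and 24.1) and Prl3d1 (0.484 and 6.19), and Gata3 stood at 10.3 and 9.85. The 4 neural genes summed to 94.9 and 93.4 with 0 past the cut-off, and Tubb3 was the highest, at 60.1 and 45.0. The near-equal sums hide opposite directions. Nes was higher (28.8 and 44.1), Sox1 was lower like Tubb3 (3.20 and 1.83), and the interval of Pax6 (2.76 and 2.56) included 0. None of these markers was at 0 in either library. The part of these markers in the Hox levels was not tested.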

How the data were processed

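RNA was measured in 2 libraries, 1 Diff–CONT and 1 Diff–iKO, prepared by a stranded poly(A) kit (input 1 µg RNA) and sequenced in paired-end mode. The deposited values are FPKM per gene for 24354 genes, made by the authors. The submitters' processing notes for these samples name STAR 2.7.9a, Cuffnorm, Cufflinks 2.2.1 and mm10, without roles. The annotation, strand setting and read numbers are not given in the sources used here. No columns of other samples were present (0).

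The cut-off was a fold change of at least 2 and FPKM of at least 2 in at least 1 library. The study names these limits but no pseudocount, and none was added here, which called 833 genes higher and 1038 lower. A pseudocount of 0.1 was an alternative, and it moves calls near the fold limit, such as that of Hoxb3. It called 807 genes higher and 1002 lower, the same counts as the paper reports. Medians used log2(FPKM + 0.1) over genes whose mean FPKM reached 1, a scale that understates the change of low genes. With 1 library per condition no test between conditions was run. Low FPKM values of one-transcript genes were steps of 1 fragment: 87.7% and 87.6% lay within 0.2 of a whole number, against 40% by chance. This gave the fragments per gene, and Clopper-Pearson 95% intervals on them, with the shortest RefSeq transcript as length. The fragments are thus approximate, and too low for genes whose RNA came from longer transcripts. No count test was run on them, since it would compare only these 2 libraries. RefSeq coordinates (GRCm38.p6) were matched by symbol for 24231 genes, and 123 did not match.

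All Hox genes and Halr1 enter the counts, and values are given for those of FPKM 0.5 or more. Of other lists (noncoding, flanking, cofactor, axial, chromatin, ParaHox and cell type marker genes), those past the cut-off and the highest were named. A few genes that this rule names are in the counts and sums but are not reported here by name or drawn. Cdx1, Rarg, Rara, Aldh1a2, Eed, Suz12, Jarid2, Ezh2, Gata3, Nes, Sox1, Pax6 and neighbours inside the windows were chosen after their values were seen. Members and lists were chosen with earlier results of these data known. The scripts were tested on simulated data. Alternatives were other pseudocounts, filters, fold limits, scalings and left-out genes. The software was scipy 1.17.1, numpy 2.4.6 and pandas 2.3.3 under Python 3.11.15, with figures drawn in matplotlib 3.10.9.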

Additional observations from a re-analysis of the deposited data

How the results depend on the processing

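The count of Hox genes past the cut-off depends on where the limits stand, since most of these genes lie below an FPKM of 2. The share of all genes called at each setting is in parentheses. The 5 lower genes became 4 with a pseudocount of 0.1 (8.1%) or with upper-quartile scaling (8.09%), both of which end the call of Hoxb3. They became 2 with a pseudocount of 1 (5.75%), 3 with FPKM of at least 2 in both libraries (5.1%), 14 with FPKM of at least 1 (9.77%), 26 with no filter (14.7%) and 1 with a fold change of at least 4 (1.91%). The 1 higher gene became 3 with no filter (14.9%). The log2 ratio of the summed Hoxb cluster, -0.35, became -0.12 without Hoxb2, its highest gene, and -0.85 without Hoxb9, an alternative chosen after seeing the data. The sums of the other clusters ranged over -1.33 to -1.22 for Hoxa, -1.35 to -1.09 for Hoxc and -1.72 to -1.41 for Hoxd, and the Hox median over -1.12 to -0.56. The scalings moved log2 ratios by -0.09 to 0.02. Of 32 members with a ratio 0 changed direction under the pseudocounts and scalings run, and 15 moved beyond their counting interval with a pseudocount of 1. No paired analysis was possible because there is 1 library per condition, and for the same reason no replicate could be left out. Depth limits the low members most, whose values rest on few fragments.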
